A study of Mus musculus with 18 samples.

Results

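The isoforms described here had a 5′ end and a 3′ end that both lay away from the ends of the annotation the authors used. They were taken from both deposited tables by the authors' class for a new start together with a new polyadenylation site, on nuclear chromosomes, and they numbered 758 of the 11301 distinct isoforms in the tables. There were 478 among the 7123 isoforms listed for polysomes and 401 among the 6636 listed for decay, and 121 had identical ends in both. The deposited distances bore out the class: the ends of these isoforms lay at least 102 nt (5′) and 101 nt (3′) from the annotated ends in the polysome table and at least 101 nt in the decay table, while ends called annotated lay at most 100 nt away. Near that limit, 2 polysome and 6 decay isoforms had both ends within 150 nt.

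The cells were primary myoblasts taken from the gastrocnemius of female wild-type (WT) mice, which fused to myotubes within 24 h in 1 µM SCH772984, an inhibitor of the ERK kinases, so that every library came from treated cells. The age and strain of the mice are not stated by the labels. One set of 6 libraries (2 mice) held the ribosome-free, light (2 to 5 ribosomes) and heavy (6 or more ribosomes) fractions of sucrose gradients, run after 5 min in 100 µg/ml cycloheximide, which holds ribosomes on mRNA. The other set of 12 libraries (3 mice) was taken at 0, 3, 6 and 12 h in 7.5 µg/ml actinomycin D, which blocks transcription. TIF-seq2 reads both ends of the same RNA molecule, so each isoform is a pair of ends with a count of its coverage. Each table gives 1 pooled coverage count per isoform and no value for a single library. No spread between mice could therefore be computed, no test between groups was run, and all intervals below describe the spread across isoforms or counting error.

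As background, the start of an mRNA sets its leader, the 5′ UTR that ribosomes scan before the start codon, and an AUG within the leader can capture them. The cleavage and polyadenylation machinery recognises a hexamer, most often AAUAAA, a short way upstream of the 3′ end it makes. The length of the 3′ UTR decides which binding sites for microRNAs and RNA-binding proteins an mRNA carries. In muscle, many genes for contractile and cytoskeletal proteins have several starts and polyadenylation sites.

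The last 30 nt of 1 isoform of each of 8 genes described below are shown because the new 3′ ends of these genes recur in the results, with the hexamer AATAAA or ATTAAA in capitals (positions are those of the isoform in the deposited tables, build GRCm39).
Acta2, chr19:34218924-34232734, minus strand: ttaaaAATAAAtcagacatgtgctaccctt
Tpi1, chr6:124787679-124791121, minus strand: acatgtaagggaAATAAAcacctgggcctg
Mustn1, chr14:30601499-30603150, plus strand: acaccAATAAAgagtatgcccaatgtcccc
Des, chr1:75339325-75344357, plus strand: ggacagaaacaatAATAAAgagacaagcac
Tpm2, chr4:43515683-43518442, minus strand: actacttAATAAActctgaacttggtctcc
Rpl12, chr2:32851726-32854055, plus strand: ttccAATAAAagactatctgataaccagtg
Tmem37, chr1:119995255-120001520, minus strand: gtcatgctATTAAAatctcaatttgaaagt
Bysl, chr17:47912162-47922148, minus strand: gtgcggagaaaacaggcatttatttatcgc
The first 20 nt of the leaders of 6 of these isoforms follow, with the first base in capitals, since the first base of a capped mRNA is most often a purine.
Acta2: Acaccacccacccagagtgg
Tpi1: Gtttgtactgaccttcagag
Mustn1: Agatcctttcctgtggctac
Rpl12: Cttttcggctttcggctcgg
Tmem37: Acaagtgcacgagtgcgaca
Bysl: Tttttagccggcttcacacg
Of the 8 isoforms shown, the Bysl isoform had neither hexamer in its last 40 nt, and the Tmem37 isoform had ATTAAA.

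Isoforms new at both ends made up 6.74% of the nuclear isoforms in the polysome table and 4.70% of its coverage (75280 counts). For decay the shares were 6.08% and 4.72% (147077 counts). Coverage reflects both the number of cells and the RNA per cell, which cannot be told apart. Their median coverage was 26 counts in the polysome table, against 45 for annotated isoforms, and 52 against 95 in the decay table. A minimum of 30 counts left 218 isoforms (45.6%) and 294 (73.3%). It was used below for hexamers, upstream AUGs, UTR lengths and derived values. Missing UTR sequences, RefSeq starts and leaders that opened with intron letters were counted over all listed isoforms. First bases were counted with the minimum unless all coverages are named.

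By direction, 344 of the 478 polysome isoforms were shortened at both ends, 52 were extended at both, 53 were extended at the 5′ end and shortened at the 3′ end, and 29 the reverse. Among the 401 decay isoforms the same groups held 342, 19, 19 and 21. Both-shortened isoforms thus formed the bulk of the isoforms new at both ends in each table. They carried 69477 of the 75280 counts and 142203 of the 147077.

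**Figure D1:**
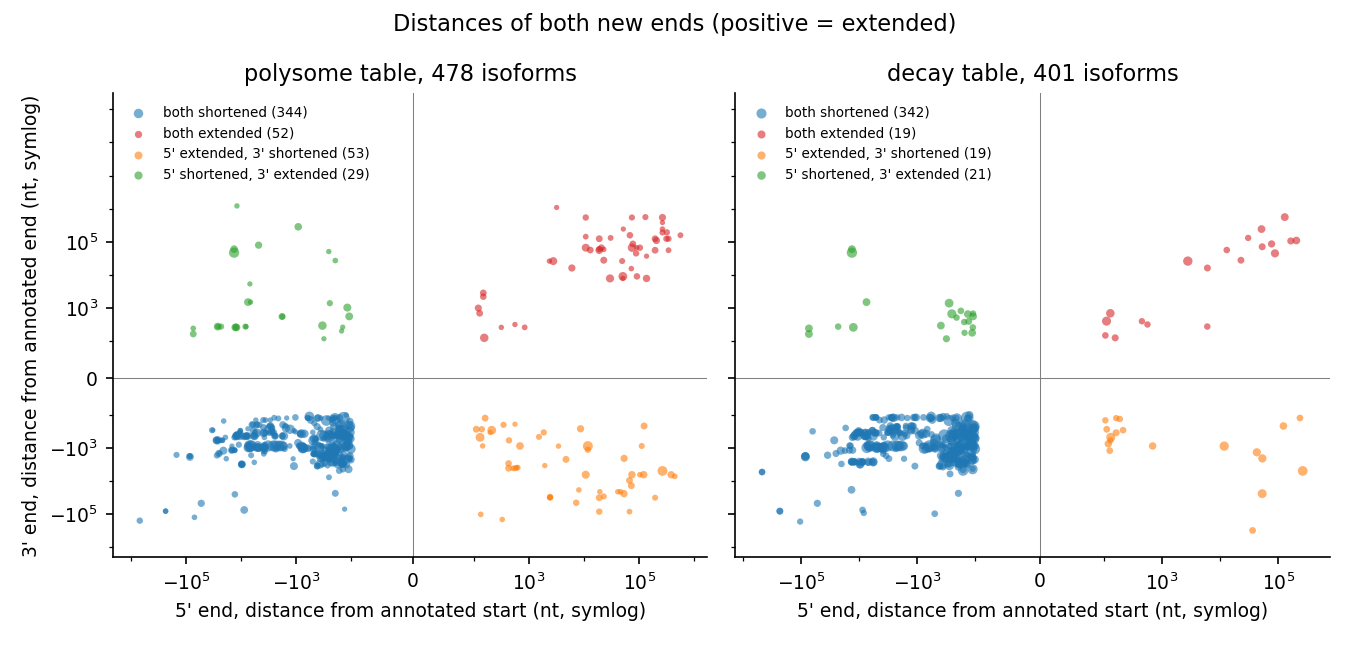
Distance of the 5′ end (x axis) and of the 3′ end (y axis) from the annotated end, in nt on symmetric log axes, for each isoform new at both ends; negative is inside the annotated transcript and larger points have more coverage. Both-shortened isoforms fill the lower left quadrant of both tables, and most of the 52 both-extended isoforms of the polysome table lie at the far ends of both axes.

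The groups differed in how far their ends had moved and in the genomic span between them, introns included. The median 5′ offset of both-shortened isoforms was 467 nt (quartiles 197.75 to 4009) in the polysome table and 559 nt in the decay table, and the median 3′ offset was 866 and 832 nt. Their median span was 5762 nt (quartiles 2773 to 15612) and 5877 nt, against 9167 and 9791 nt for annotated isoforms. Of the both-extended isoforms, 43 of 52 (82.7%) spanned over 100000 nt in the polysome table, with a median of 354848 nt, and 12 of 19 (63.2%) did so in the decay table, with a median of 302311 nt. Among both-shortened isoforms 8 of 344 (2.33%) and 4 of 342 (1.17%) passed that span, and among annotated ones 2.29% and 2.83%. Both ends had moved by more than 10000 nt in 35 of the 52 both-extended polysome isoforms and in 6 of the 344 both-shortened ones.

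**Figure D2:**
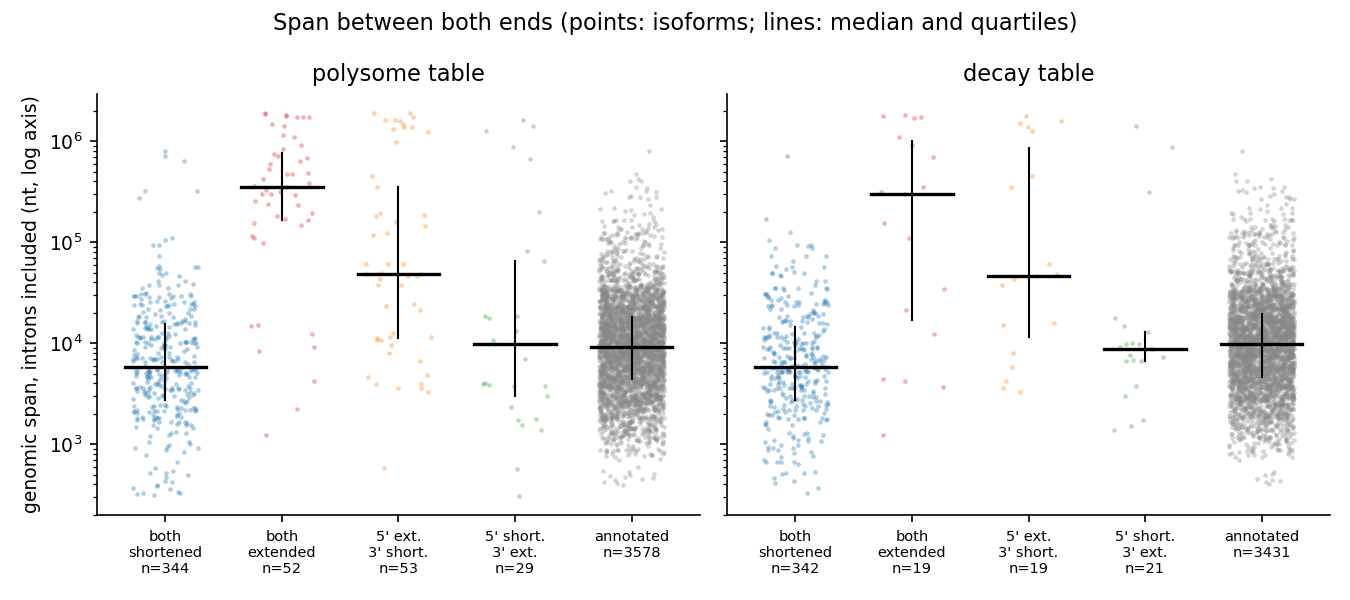
Genomic span of each isoform (points, log axis) by group, with annotated isoforms in grey; horizontal lines are medians and vertical lines quartiles. The both-extended group has a median of 354848 nt in the polysome table and 302311 nt in the decay table, and the both-shortened medians are 5762 and 5877 nt against 9167 and 9791 nt for annotated isoforms.

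Most both-extended isoforms lacked UTR sequences. Of the polysome ones, 14 of 52 (26.9%) reached 30 counts, against 50.3% of both-shortened ones. Of the decay ones, 13 of 19 (68.4%) did, against 74.9%. Of the 52 polysome isoforms, 7 (13.5%) had both UTR sequences, against 287 of 344 (83.4%) for both-shortened and 99.1% for annotated isoforms. In the decay table, both were given for 5 of 19 (26.3%). The best-covered long isoform ran from 125397873 to 126811161 on chromosome 4, a span of 1413289 nt shortened by 13380 nt at the 5′ end and extended by 47298 nt at the 3′ end. It had 733 counts in the polysome and 775 in the decay table, where its half-life was 9.92. The next ran from 90979103 to 92369599 on chromosome 9, a span of 1390497 nt with a 5′ extension of 265363 nt, 434 and 389 counts, and a half-life of 7.21. Neither could be given a gene name by sequence. The best-covered both-extended polysome isoform spanned 291459 nt of chromosome 19 with 157 counts, and the best-covered both-extended decay isoform spanned 302311 nt of chromosome 3 with 272 counts and a half-life of 13.4. A contrasting case was Creb3, a transcription factor held in the endoplasmic reticulum membrane, whose both-extended isoform spanned 4267 nt, moved 155 nt at the 5′ and 127 nt at the 3′ end, and had 115 counts. Rtl8c had a both-extended isoform of 1229 nt with 121 decay counts and a half-life of 8.29, and another on chromosome 15 (81249246 to 81283905) had 199 decay counts and a half-life of 9.12. Another both-extended polysome isoform (chromosome 19, 23044507 to 23212153) had 107 counts.

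Among isoforms extended at 1 end, Ppfia4, a liprin-alpha, had the best-covered one with an extended 5′ end and a shortened 3′ end in the polysome table. It began 11754 nt before the annotated start and ended 874 nt inside, with 500 polysome counts and no TE, and 248 decay counts at a half-life of 9.86. A shorter one on chromosome 13 (34311206 to 34314467) had 171 counts at a TE of 0.000441 and 191 counts at a half-life of 7.45. With a shortened 5′ end and an extended 3′ end, Hcfc1r1 had 118 polysome counts at a TE of 0.00115 and Tmem38a, a cation channel of the muscle sarcoplasmic reticulum, 78 counts at a TE of 0.000340. In the decay table an isoform on chromosome 17 (73143701 to 73156501) had 220 counts at a half-life of 13.0, and one on chromosome 7 (83541492 to 83548388) had 152 counts at 14.2.

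Coverage was concentrated in a few loci. The 478 polysome isoforms came from 256 loci, of which 184 held 1 of them, and the 5 loci with the most coverage held 52.2% of all counts of isoforms new at both ends. Decay isoforms came from 217 loci, 156 with 1 such isoform, and the top 5 held 47.5%. An isoform new at both ends was the most covered isoform of its locus in 60 of 128 polysome loci with more than 1 isoform, and in 56 of 127 decay loci. Annotated isoforms were listed in 25 of the 256 and 27 of the 217 loci. Gene symbols could be assigned to 191 polysome and 141 decay isoforms, in 91 genes, through an exact match of a leader to a RefSeq promoter (GRCm38.p6).

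Acta2, which encodes the alpha-actin of smooth muscle, was the clearest of the loci led by such an isoform. Its main isoform began 256 nt inside and ended 434 nt inside the annotated transcript, with 7787 counts in the polysome table (80.5% of the locus) and 15534 in the decay table (70.9%). It had a leader of 68 nt, a 3′ UTR of 143 nt, a TE of 0.000742 and a half-life of 12.9. TE and half-life are the authors' values, for which no source used here gives a formula or unit. A second start 113 nt inside gave 396 and 4080 counts at the same 3′ end. In all, 25 isoforms of Acta2 were new at both ends in the polysome table and 12 in the decay table, and they held 96.7% and 98.2% of the locus's counts. All but 1 of the 25 ended at the same base; the remaining isoform, with 12 counts, ended 50956 nt beyond the annotated end.

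TE within Acta2 varied with the start while the 3′ UTR stayed the same. Among isoforms with at least 30 counts, the 3 that began 113 to 256 nt inside had TE of 0.000742 to 0.000801. The 8 that began 1675 to 8095 nt inside had TE of 0.00102 to 0.00172, and the 3 that began 10547 to 12223 nt inside had 0.000733 to 0.000773. The middle set did not overlap the others, but these 3 ranges of starts were drawn after the values were seen. The separation therefore partly reflects how the ranges were chosen and is no test of an effect of the start. The same division gave half-lives of 10.96 to 12.9 for 2 isoforms, 10.6 to 21.4 for 7 and 10.4 to 12.1 for 3, which overlapped. The 8 isoforms of the middle set had 37 to 145 counts.

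Tpi1, the glycolytic enzyme triosephosphate isomerase, followed the same form. Its main isoform began 138 nt and ended 124 nt inside, and had 7540 counts (88.0% of the locus) with a TE of 0.000848, and 15025 counts (88.5%) with a half-life of 12.8. The other 10 polysome isoforms of Tpi1 new at both ends had 11 to 68 counts. Mustn1, a small nuclear protein of the musculoskeletal system, had 7 isoforms in the polysome and 6 in the decay table, with 98.5% and 100% of the locus's counts. All of them ended 417 nt inside the annotated end. The main one began 342 nt inside, with 2342 counts and a TE of 0.00143, and 7317 counts and a half-life of 13.1. A start 122 nt inside, which lengthened the leader from 65 to 285 nt, had 275 counts, a TE of 0.000519 and a half-life of 18.5. For Mustn1 the isoform with the longest of these leaders thus had the lowest TE of the 6 with at least 30 counts. TE did not follow leader length throughout. Leaders of 93, 153 and 193 nt had TE of 0.00106, 0.00108 and 0.00114, and one of 263 nt (41 counts) had 0.000762. An isoform new at the 3′ end alone (53 counts) shared that 3′ end and had a longer leader of 329 nt. Its TE was 0.000770.

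In other loci too, isoforms new at both ends held most of the counts. Rpl12, a protein of the large ribosomal subunit, had 804 counts at a TE of 0.000787 and 4487 counts at a half-life of 12.8. Tmem37, a membrane protein, had 1082 counts at a TE of 0.00128 and 1896 at a half-life of 11.1. Snrpd2, a core protein of the spliceosomal particles, had 1062 counts at a TE of 0.00168 and 1418 at a half-life of 14.5. Yars, the cytoplasmic tyrosyl-tRNA synthetase, had 703 and 1070 counts, a TE of 0.000629 and a half-life of 10.8. Bysl, a ribosome biogenesis factor, used the same start with several 3′ ends: in the decay table the end 1906 nt inside had 2783 counts and a half-life of 13.1, the end 1758 nt inside had 680 counts and 9.91, and the end 1442 nt inside had 27 counts, under the minimum. Unnamed loci on chromosomes 19 and 10 held 6 and 6 such isoforms in the polysome table, and 10 and 18 in the decay table. The best covered on chromosome 19 ran from 8944559 to 8955544 (2857 and 10094 counts). The best covered on chromosome 10 ran from 80905979 to 80918053 (2452 and 6931 counts). At the locus on chromosome 19 the share of counts in isoforms new at both ends was 80.8% (polysome) and 97.8% (decay), and on chromosome 10 it was 100% in both tables.

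**Figure D3:**
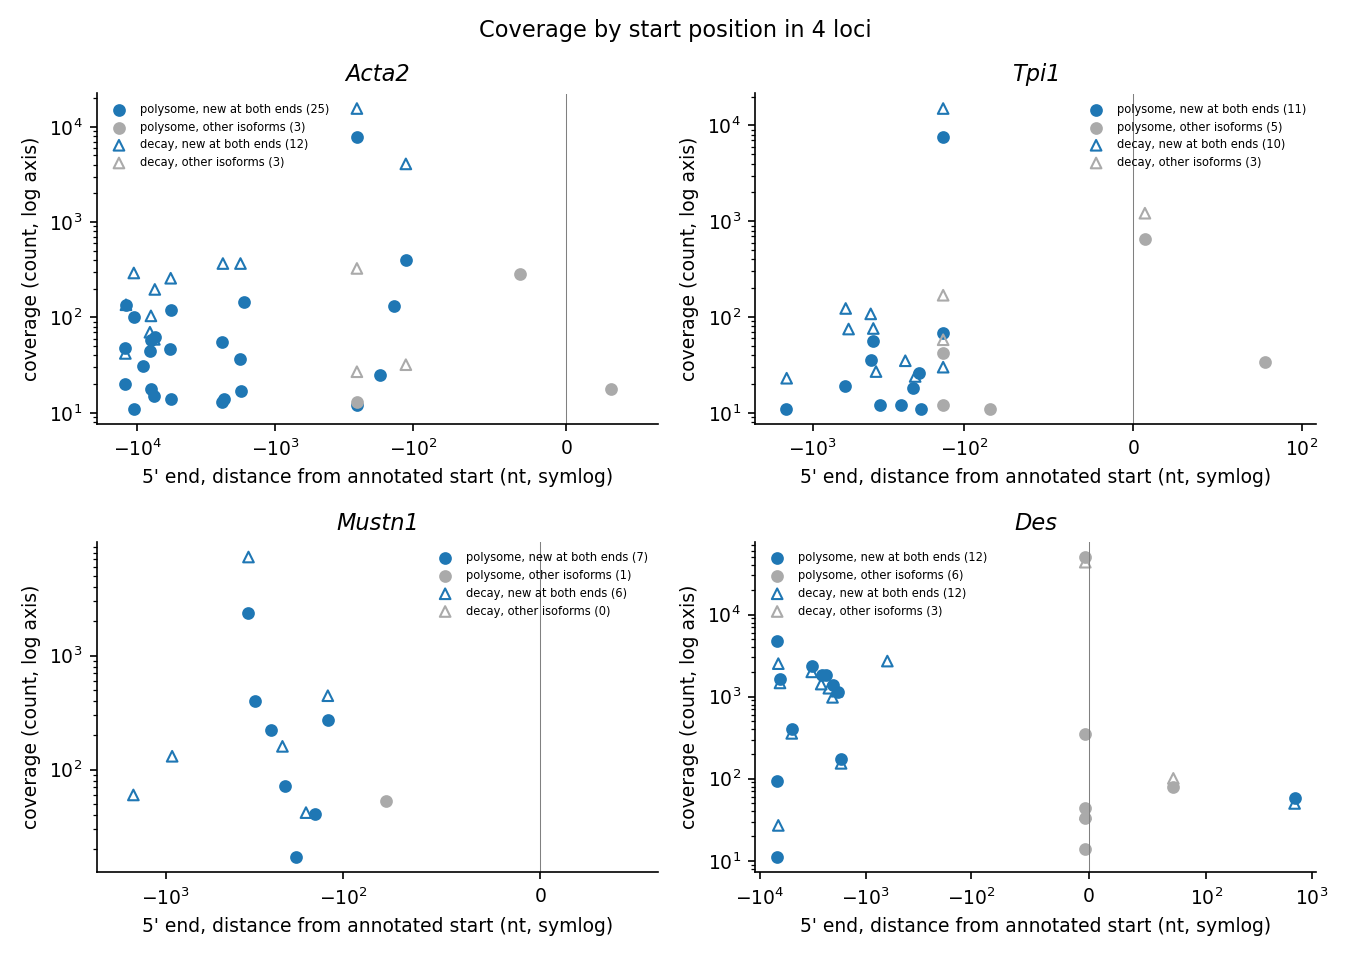
Coverage (log axis) of each isoform of Acta2, Tpi1, Mustn1 and Des against the distance of its start from the annotated start (nt, symmetric log axis; negative is inside); blue marks isoforms new at both ends, grey other isoforms, circles the polysome and triangles the decay table. In Acta2, Tpi1 and Mustn1 the highest points are blue, and in Des the highest point is an isoform with an annotated start and the blue points lie from 690 nt before to 6913 nt inside.

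Des, the muscle intermediate filament protein desmin, had the other form. Its main isoform began 3 nt from the annotated start and was new at the 3′ end alone, 866 nt inside, with 50264 counts in the polysome and 43471 in the decay table. The 12 polysome isoforms new at both ends held 23.7% of the locus's counts, and the 12 decay isoforms held 24.5%. They joined starts from 690 nt before to 6913 nt inside the annotated start mostly to that same 3′ end. The best covered in the polysome table began 6913 nt inside with 4818 counts, followed by a start 3217 nt inside with 2348. TE of the 9 with a value and at least 30 counts lay between 0.000317 and 0.000430, around the 0.000403 of the main isoform. Of half-lives, 11 lay between 11.5 and 32.5, against 12.4 for the main isoform. The highest, 32.5, came from a start 5010 nt inside with 357 counts.

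Tpm2, the beta-tropomyosin of the thin filament, resembled Des. Its 3′ end 971 nt inside was used by an isoform with the annotated start, with 8897 and 46421 counts, and by 12 and 9 isoforms new at both ends, which held 6.81% and 10.3% of the locus. TE of 10 of them lay between 0.000748 and 0.00109, against 0.000831 for the isoform with the annotated start and the same 3′ end. The fully annotated isoform, with a 3′ UTR of 1209 nt in place of 238 nt, had a TE of 0.000466, below all 10. Half-lives of the 9 decay isoforms lay between 8.55 and 26.6, around 12.8 for the isoform with the annotated start. Chrng, the fetal subunit of the muscle acetylcholine receptor, had 11 such isoforms at 1 new 3′ end in the polysome table, with 353 of the 5783 counts ending there.

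Many starts also met at 1 new 3′ end in other loci, mostly among both-shortened isoforms. The 478 polysome isoforms had 418 distinct 5′ ends and 265 distinct 3′ ends, and the 401 decay isoforms 360 and 245. The 3′ end was shared with an isoform new at the 3′ end alone in 216 (45.2%) and 177 (44.1%), and the 5′ end with one new at the 5′ end alone in 89 (18.6%) and 72 (17.96%). In loci with several isoforms, 217 of the 290 polysome isoforms that were not the most covered (74.8%) ended at the same base as the most covered isoform of the locus, and 53 (18.3%) began at the same base. For decay isoforms the figures were 181 of 255 (71.0%) and 47 (18.4%). Both-extended isoforms differed: 0 of 7 polysome and 0 of 2 decay ones had the 3′ end of the most covered isoform, and 5 of 7 and 2 of 2 had its 5′ end. At 19 polysome 3′ ends 5 or more isoforms new at both ends met, 150 isoforms in all (31.4%), and at 13 decay 3′ ends 124 (30.9%).

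Part of the new starts lay at RefSeq starts. The leader's first 25 nt were searched in the RefSeq promoter windows, from 250 nt before to 50 nt after each gene's start. Among isoforms new at both ends in named loci with a leader of that length, 40 of 136 (29.4%) began inside the window in the polysome table and 39 of 105 (37.1%) in the decay table, 15 and 17 of them within 10 nt of the RefSeq start. Annotated isoforms did so in 67.6% and 70.0%, and isoforms new at the 5′ end alone in 19.3% and 21.5%. The shares run high, since the same match named the loci. The main Tpi1 isoform began 0 nt from the RefSeq start and Yars 0 nt, Snrpd2 1 nt before, Rpl12 2 nt after and Tmem37 10 nt before, although the deposited distances placed them 138, 143, 115, 155 and 284 nt inside an annotated transcript. Whether a start counted as new thus depended on the annotation it was set against. Isoforms new at both ends that matched a RefSeq window held 13360 and 30948 counts.

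Starts farther inside the transcript differed in their leaders. Of both-shortened polysome isoforms, 183 began up to 500 nt inside, 79 began between 500 and 5000 nt inside and 82 farther. A leader sequence was missing from 1 (0.546%), 18 (22.8%) and 24 (29.3%) of them. At 30 counts or more, the first base was A in 55 of 98 leaders (56.1%), 14 of 35 and 8 of 21 (38.1%). Decay leaders had 58.4%, 38.9% and 27.7% (n = 137, 54 and 47). At least 1 upstream AUG was present in 23.5% (95% Wilson interval 16.2 to 32.8), 68.6% (52.0 to 81.4) and 52.4% (32.4 to 71.7) of the polysome leaders. Among decay leaders the shares were 15.3% (10.2 to 22.3), 63.0% (49.6 to 74.6) and 53.2% (39.2 to 66.7). The intervals of the nearest class did not overlap those of the class from 500 to 5000 nt in either table. Identical ends in the other table were found for 36.1%, 21.5% and 14.6% of the 3 polysome classes and for 39.3%, 19.1% and 14.1% of the decay classes.

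Some deposited leaders did not begin at the mapped start. Of leaders of isoforms new at both ends, 28 of 349 (8.02%) in the polysome and 23 of 346 (6.65%) in the decay table opened with GTAAG or GTGAG, the letters at the first bases of many introns; the share was 0.141% and 0.263% among annotated isoforms, and 8.65% and 7.84% among those new at the 5′ end alone. The Des starts 1701 nt inside (polysome, 174 counts) and 1710 nt inside (decay, 154 counts) carried the same leader of 343 nt, although they lay 9 nt apart. It is shown because it opens with such letters.
Des leader: Gtgagggcctcccagatctt
In all, 23 and 17 isoforms new at both ends had a leader that another 5′ end carried too. Of 103 isoforms with identical ends and a leader in both tables, 4 had different leaders in them, while all 103 with a 3′ UTR in both had the same 3′ UTR. Without the leaders that opened with these letters, the share with a first A was 57.4%, 35.1% and 31.2% in the 3 polysome classes and 57.8%, 38.2% and 27.4% in the decay classes, over all coverages. The share with an upstream AUG at 30 counts or more was 22.7%, 66.7% and 50.0%, and 15.2%, 63.3% and 50.0%. The fall in first A and the higher share of upstream AUGs were thus seen without them.

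Over all isoforms new at both ends with 30 counts or more, an upstream AUG was present in 39.5% (95% Wilson interval 32.5 to 47.0) of polysome and 35.5% of decay leaders, against 37.5% and 32.0% of annotated ones. The median leader had 81 and 83 nt, against 108 and 98 nt, and the median 3′ UTR 238 and 253 nt, against 326 and 328 nt.

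At the 3′ end, AATAAA or ATTAAA stood in the last 40 nt of 142 of 189 polysome isoforms (75.1%, interval 68.5 to 80.8) and 220 of 270 decay isoforms (81.5%, interval 76.4 to 85.7). Annotated isoforms had 83.6% and 84.0%, isoforms new at the 5′ end alone 88.5% and 89.8%, and isoforms new at the 3′ end alone 62.7% and 64.5%. Since several isoforms met at some 3′ ends, each distinct 3′ end was also counted once, which gave 65.8% (57.0 to 73.7) and 73.2%. Counted in this way in the polysome table, annotated isoforms had 82.5% and isoforms new at the 5′ end alone 86.1%. In the same table isoforms new at the 3′ end alone had 61.3% (56.8 to 65.7), an interval that overlapped that of isoforms new at both ends. The overlap was read in the polysome table only. The hexamer ended a median of 16 and 15 nt before the 3′ end, against 15 nt in both tables for annotated isoforms. By group, the hexamer stood in 1 of 2 polysome and 2 of 3 decay isoforms extended at both ends, in 3 of 9 and 8 of 12 with an extended 3′ end alone, and in 7 of 10 and 8 of 9 with an extended 5′ end alone.

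The median TE of isoforms new at both ends was 0.000719 (95% interval of the median across isoforms 0.000620 to 0.000773, n = 164), against 0.000752 (0.000735 to 0.000780, n = 2186) for annotated isoforms. Both-shortened isoforms had 0.000742 (n = 149), isoforms shortened at the 5′ and extended at the 3′ end 0.000494 (n = 8), isoforms extended at the 5′ and shortened at the 3′ end 0.000430 (n = 5), and the 2 both-extended isoforms 0.000649 and 0.00105. The interval of the group of 8, from 0.000130 to 0.00115, covered all other medians. Median TE was lower in the classes with longer 3′ UTRs. It was 0.000797 (n = 51) up to 150 nt, 0.000749 (n = 79) from 150 to 600 nt and 0.000430 (n = 34) above. Annotated isoforms had 0.00103, 0.000787 and 0.000555. Isoforms of 1 locus often shared a 3′ UTR. Acta2 gave 14 of the 51, and Des gave 9 of the 34, at TE of 0.000317 to 0.000430. These medians thus rest partly on single loci, and a relation to length was not tested.

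The median half-life was 11.1 (10.7 to 11.5, n = 290), against 10.8 (10.7 to 10.98, n = 2868) for annotated isoforms, so that the intervals overlapped. Both-shortened isoforms had 11.03 (n = 254), both-extended 12.3 (9.12 to 16.1, n = 13), the 5′-extended and 3′-shortened 9.86 (n = 9) and the 5′-shortened and 3′-extended 11.8 (n = 14). By length of the 3′ UTR, the half-life was 11.5 up to 150 nt, 10.9 from 150 to 600 nt and 11.1 above (n = 45), where annotated isoforms had 9.92.

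**Figure D4:**
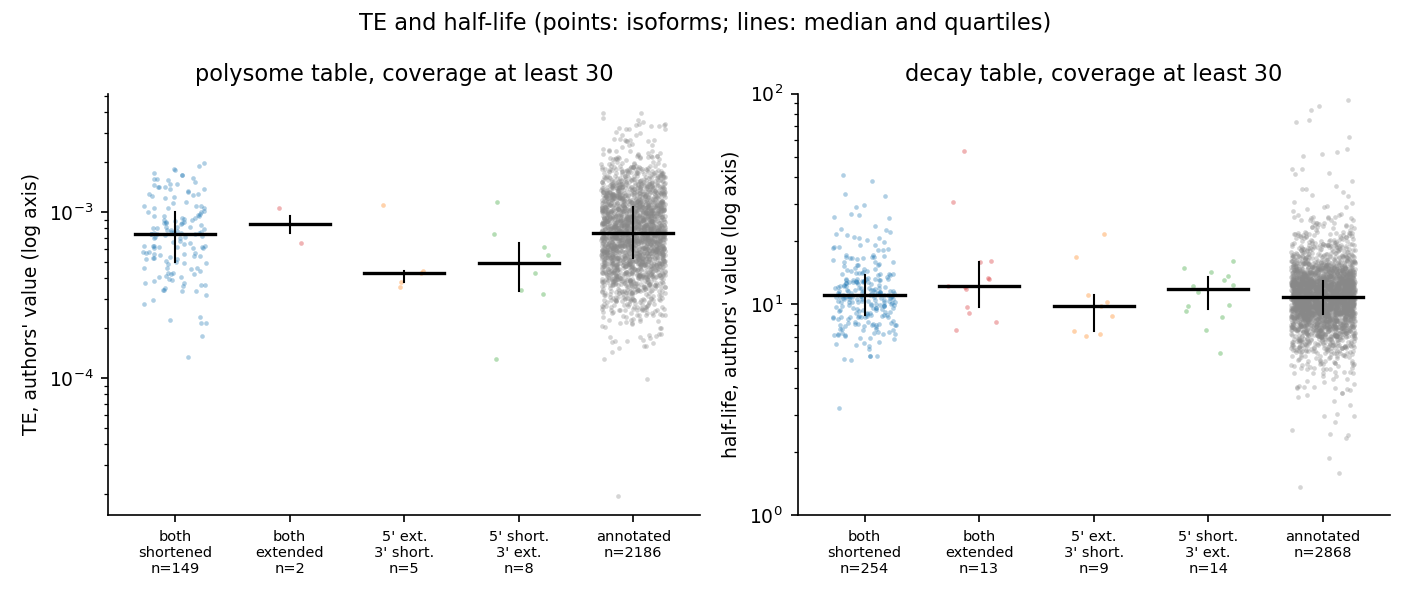
TE (left) and half-life (right), the authors' values on log axes, of isoforms with at least 30 counts by group; points are isoforms, horizontal lines medians and vertical lines quartiles, and 3 annotated half-lives above 100 lie beyond the axis. The groups overlap: the both-shortened medians are 0.000742 and 11.03 and the annotated ones 0.000752 and 10.8.

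Differences within a locus remove what isoforms of 1 gene share, and several isoforms of a locus can share the compared isoform. Against an isoform with the same 5′ end and an annotated 3′ end, the log2 difference in TE had a median of 0.41 (95% interval 0.14 to 0.49) over 30 isoforms of 21 loci, and 24 lay above 0. TE was at least 1.5-fold higher in 6 (20.0%), where 29.1% of all 141 isoforms with a new end compared in this way were, and at least 1.5-fold lower in 1, where 6.38% were. The half-life difference had a median of 0.40 (0.06 to 0.53) over 54 isoforms of 35 loci, and 36 lay above 0. It was at least 1.5-fold higher in 17 (31.5%) against 16.6% of 338, and lower in 3 (5.56%) against 9.76%. Isoforms new at the 3′ end alone, set against annotated isoforms in the same way, had medians of 0.36 for TE and 0.05 (-0.01 to 0.14) for half-life. The compared isoforms differed in the 3′ UTR: those new at both ends had the shorter one in 27 of 30 TE pairs, with medians of 239.5 against 1191 nt, and in 44 of 49 half-life pairs with both lengths, with 238 against 1138 nt.

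Single loci showed both directions. The main Acta2 isoform had a half-life of 12.9 and a 3′ UTR of 143 nt, against 9.53 and 578 nt for the isoform with the same start and the annotated 3′ end (327 counts). The main Tpi1 isoform had 12.8 and 553 nt against 8.99 and 678 nt (169 counts), while its TE of 0.000848 was close to the 0.000875 of that isoform. Shisa4 had a TE of 0.000739 against 0.000528 at the same start in the polysome table, and from a start 9 nt away in the decay table a half-life of 9.43 against 12.2. The largest fall was in Tpm2, at the start 7379 nt inside. It had 14.1 against 119 for the isoform with the same start and the annotated 3′ end (164 counts). That 119 was the highest half-life of the locus, where the next was 26.6. At all other Tpm2 starts compared in this way the isoform new at both ends had the higher half-life, from 18.3 against 16.1 to 12.4 against 7.08.

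Each isoform was also set against one with the same 3′ end and an annotated start. The median log2 difference was 0.08 for TE (-0.13 to 0.19, 82 isoforms, 33 loci). For half-life it was 0.03 (-0.08 to 0.09, 113 isoforms, 46 loci). The bases before the start codon differed, or no leader long enough to compare was given, in 48 TE and 86 half-life pairs. These pairs may thus differ in more than the 5′ end, which was not tested. TE was at least 1.5-fold higher in 15 (18.3%, background 17.8%) and lower in 9 (10.98%, background 19.9%). Half-life was higher in 14 (12.4%, background 11.4%) and lower in 17 (15.04%, background 13.6%). With the 3′ end held, the median differences lay near 0, and their direction for TE turned with 1 isoform per locus (-0.07).

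Against the most covered annotated isoform of the locus, TE could be compared for 22 isoforms of 9 loci, with a median log2 difference of 0.54 (-0.18 to 0.90). TE was at least 1.5-fold higher in 11 (50.0%, background 21.7%) and lower in 2 (9.09%, background 18.3%). Tpm2 alone gave 10 of the 22, and without the Des, Acta2 and Tpm2 loci the median was -0.12 over 12 isoforms. Half-life had a median difference of 0.07 (-0.05 to 0.58) over 42 isoforms of 17 loci, and was higher in 14 (33.3%, background 12.9%) and lower in 3 (7.14%, background 12.9%). Among pairs with at least 100 counts on both sides, the TE ratio ranged from 1.06 (chromosome 15, 78812212 to 78814394) to 2.04 (Tpm2, 43515683 to 43515996 on chromosome 4) over 7 pairs. The half-life ratio ranged from 0.889 (Tmem9, a transmembrane protein) to 5.62 (chromosome 6, 125129920 to 125137898, 38.5 against 6.85) over 13 pairs.

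**Figure D5:**
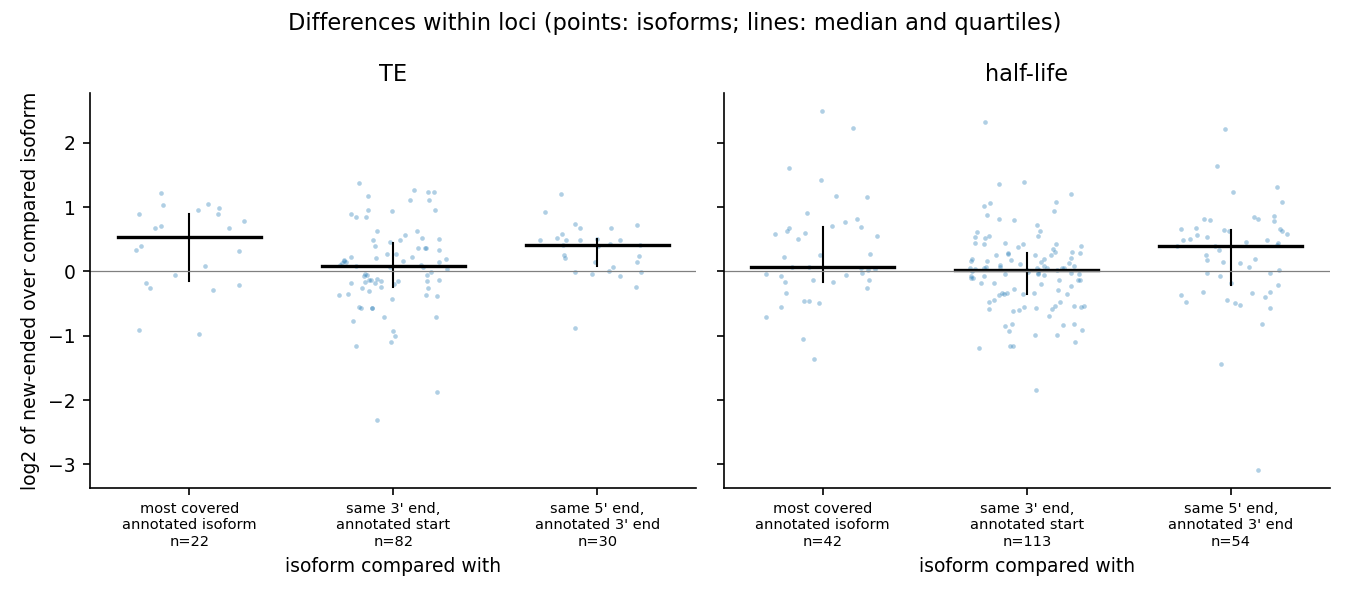
Log2 ratio of TE (left) and half-life (right) of isoforms new at both ends to the compared isoform of the same locus; points are isoforms, horizontal lines medians and vertical lines quartiles. With the same 3′ end the medians are 0.08 and 0.03, and with the same 5′ end 0.41 and 0.40.

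The 121 isoforms with identical ends in both tables were 25.3% of the polysome and 30.2% of the decay set, against 40.9% and 42.7% for annotated isoforms. They held 55.9% and 68.2% of the coverage of their sets. When both ends were allowed to differ by 50 nt, 53.1% and 55.1% had a counterpart, against 77.1% and 73.7%. The 10 both-extended isoforms with identical ends were 19.2% of the 52 polysome and 52.6% of the 19 decay ones, and 13 in each table (68.4% of the decay ones) had a counterpart within 50 nt. Across the 121, coverage in the tables had a Spearman rho of 0.723; these points share loci and RNA abundance. Over the 69 with both values, TE and half-life had a rho of 0.06, against 0.26 over 1126 annotated isoforms.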

How the data were processed

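TIF-seq2 was run on 6 polysome and 12 decay libraries. Per the submitters' processing notes, STAR 2.5.3a, UMI-tools 0.5.4, cutadapt 1.16 and bcl2fastq 2.20.0 were used with build GRCm39. The authors deposited 1 table per assay with a coverage count per isoform (from 11 and from 21 counts up, as the values show), annotation classes, end distances, UTR sequences and TE or half-life; depth per library is unknown. The members, lists and cut-offs here were chosen with earlier results of these data known. Isoforms of both tables were joined into loci by shared ends or shared UTR sequence; isoforms with a new end that spanned over 100000 nt stayed alone. TE or half-life values at or below 0 were left out (1 and 9 among members). Medians carry order-statistic intervals and shares Wilson intervals (95%), which cover counting error only. Fold differences of 1.5 were counted without a test. Isoforms named are the 3 most covered per subgroup and table, the 5 best covered in both tables and the extreme pairs, and others chosen after their values were seen. Python 3.11.15, pandas 2.3.3 and scipy 1.17.1 were used, and the code was tested on simulated data. Mitochondrial isoforms entered no comparison; their deposited counts are given in the closing section.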

Additional observations from a re-analysis of the deposited data

Results flagged for a closer look

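Mitochondrial isoforms of the same class lay outside the comparisons and still carried coverage. There were 9 such polysome isoforms with 782 counts in all, and 3 decay isoforms with 251 counts. These were flagged as signal in rows that no comparison used.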

How the results depend on the processing

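No paired analysis was possible because each table gives 1 pooled value per isoform and no value for a single mouse; leaving out a replicate could not be done for the same reason. Under the alternatives, 94 of 110 values of the main results moved by less than their interval and 16 moved more; no value whose interval left out 0 changed sign. A coverage minimum of 60 gave a median 5′ offset of 320 nt in the polysome table, a median span of 8743 nt in the decay table, and half-lives of 11.6 for all isoforms new at both ends and 11.8 for the both-shortened. With AATAAA alone the hexamer share was 58.7% and 60.4% of all and 59.5% and 59.3% of both-shortened isoforms (polysome and decay), with 12 hexamers 87.8% and 90.7%, and 88.7% and 90.7%, and over distinct 3′ ends 65.8% and 73.2%, and 68.9% and 73.4%. Taking 1 isoform per locus, leaving out the Des, Acta2 and Tpm2 loci, and the coverage minima of 15 and 60 for the pairs with a shared end were added after seeing the data. The median TE difference at the same 5′ end was 0.26 with 1 isoform per locus and 0.25 without those loci, and that of the half-life 0.33 and 0.26. At the same 3′ end, medians near 0 turned negative: for TE with a minimum of 60 (-0.06), 1 isoform per locus (-0.07) and without those loci (-0.07), and for half-life with a minimum of 15 (-0.01) and without those loci (-0.04). The cause of these moves was not tested. With a median coverage of 26 counts in the polysome table, single isoforms under the minimum carry little precision.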
